A study of Mus musculus with 23 samples.

Results

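The mitochondrial ribosomal protein genes are the nuclear genes named Mrpl and Mrps, which encode the proteins of the large and the small subunit of the mitochondrial ribosome. They were taken by name, as all symbols that start with Mrpl or Mrps and a number, leaving out 6 pseudogene rows. This gave 78 of the 55487 genes of the table, 49 with Mrpl and 29 with Mrps names. Poly(A) RNA of whole hearts from C57BL/6J mice was sequenced for 2 mouse models of heart failure with a preserved ejection fraction, each beside controls of its own and each in a run of its own. The diet model (HFD+L-NAME, 4 libraries, 2 female) was made in wild-type mice, which received a diet of 60 kcal% fat and drinking water with 0.5 g/L of L-NAME, an inhibitor of nitric oxide synthase. Treatment began at 10 weeks of age and lasted 15 weeks, and the wild-type controls of the same age ate chow (4 libraries, 2 female). The other model (db/db+Aldo, 8 libraries, 4 female) was made in mice homozygous for the Leprdb allele, a loss of leptin receptor signalling in every cell that brings obesity and diabetes. Pumps gave these mice 0.3 µg/h of aldosterone, starting at 12 weeks of age and lasting 4 weeks, and wild-type mice with vehicle pumps were the sham controls (7 libraries, 4 female). Each treated group therefore differs from its controls by 2 factors at once, genotype and aldosterone or diet and L-NAME, whose parts cannot be told apart. No group was compared with a group of the other run.

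Mitochondrial ribosomes sit in the mitochondrial matrix and translate the few messenger RNAs of the mitochondrial genome, all of which code for subunits of the respiratory chain and the ATP synthase. Their ribosomal RNAs come from the mitochondrial genome, but all of their proteins are encoded in the nucleus, made in the cytosol and imported, so that the particle is assembled from products of both genomes. Many of the proteins have counterparts in the bacterial ribosome, while others are found in mitochondria alone. The heart muscle cell is packed with mitochondria, and inherited loss of some of these proteins in humans, among them MRPL3, MRPL44 and MRPS22, causes cardiomyopathy.

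Libraries held 21258779 to 25692431 recovered counts, and the median member had 539 normalised read counts (recovered counts divided by a size factor per library) in sham hearts. The 7 cardiomyocyte markers were detected in every group, with a summed level of 678403 to 1299122 normalised counts per library. The labels do not say which libraries come from separate animals, and the spread that the p-values rest on may in part be technical. One library stood apart for these genes and is described with them below, db/db+Aldo replicate 5. In bulk tissue, fewer cells of a type and less RNA per cell cannot be told apart in any of the values that follow.

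All members but 1 were expressed in all 4 groups. Levels were compared between genes per 1 kb of exon, as normalised counts divided by exonic length. The median member lay at 214 per kb in sham, 207 in db/db+Aldo, 235 in chow and 244 in HFD+L-NAME hearts, with the middle 50% of members between 96.9 and 430.1 per kb in sham hearts. Mrpl12, a protein of the ribosomal stalk that also binds the mitochondrial RNA polymerase, had the highest level in sham hearts (1444 per kb), and Mrpl34 in the other 3 groups (1262 per kb in db/db+Aldo, 1829 in chow and 1927 in HFD+L-NAME). Mrpl42, a protein of the large subunit found in mitochondria alone, had the highest count, with a mean of 4480.2 ± 190 (SD, n = 7) normalised counts in sham hearts. Mrpl53 was at 0 in all 23 libraries. This value is uncertain, since 88.0% of its exonic bases are shared with the overlapping gene Gm42688 on the same strand, and how reads on shared bases were counted is not given in the sources used here. Mrpl53 was not tested, and the other 77 members passed the filter of a mean of 10 normalised counts in both models.

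In db/db+Aldo hearts, 4 of the 77 tested members fell against sham hearts and 0 rose. Mrpl3 of the large subunit fell the most, and Mrps5, Mrps15 and Mrps24 of the small subunit fell by a smaller amount. The changes were modest, with log2 changes on the log2(normalised count + 1) scale between −0.41 and −0.23. Over all 14121 genes tested, 9.21% fell and 9.96% rose at an adjusted p under 0.05 in limma, beside 5.19% and 0.0% of the members. For 0 of the 77 members did the groups lie fully apart in either direction, beside 1.78% of all genes that were lower and 2.29% that were higher in every treated library. At an unadjusted p under 0.05, 10 of the 77 members (13.0%) differed, beside 32.1% of all genes. The median log2 change was −0.03 over the members and −0.02 over all genes, and 50 of the 77 members lay below 0. The authors' deposited table for this comparison gives the same 4 genes as lower and 0 members as higher.

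**Figure D1:**
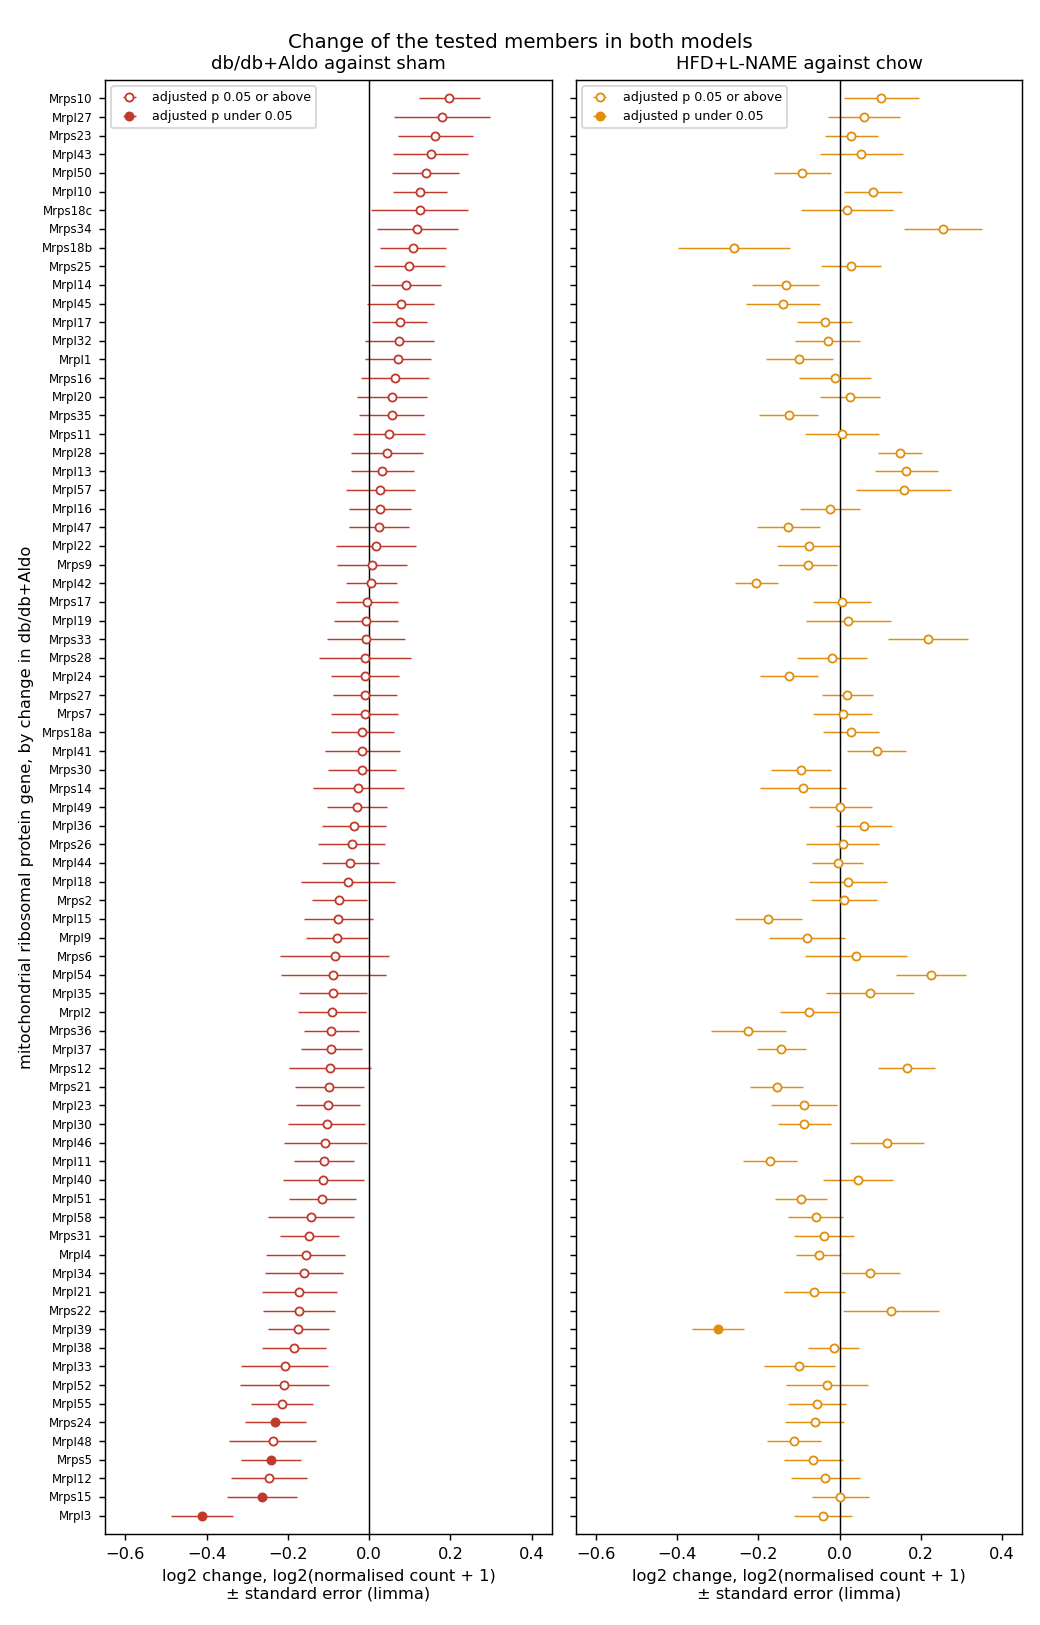
Log2 change with its standard error (limma) for the 77 tested members, sorted by the change in db/db+Aldo hearts (left) and shown in the same order for HFD+L-NAME hearts (right); filled points have an adjusted p under 0.05. The filled points are Mrpl3, Mrps15, Mrps5 and Mrps24 on the left and Mrpl39 on the right, and most other members lie within 0.25 of 0.

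Mrpl3, the protein uL3m at the core of the large subunit (chromosome 9, 105053239 to 105079888, plus strand, GRCm38), ranged from 1219 normalised counts through a median of 1301 to 1406 in sham hearts. In db/db+Aldo hearts it ranged from 831 through a median of 945 to 1223. The highest of these, 1223, was replicate 5, and it alone reached the sham range, with the other 7 db/db+Aldo libraries below every sham library. Its mean of 990.1 ± 135 (SD, n = 8) in db/db+Aldo hearts stood against 1303 ± 72.5 (SD, n = 7) in sham hearts, giving a log2 change of −0.41 ± 0.08 (SE, limma adjusted p = 0.000842). It passed the test in 30 of 30 alternative settings of scaling, filter, model and left-out library, with an adjusted p between 4.8e-05 and 0.0113. These 30 do not include the splits by library name, and within the long library names its call was lost (limma adjusted p = 0.313).

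Mrps5 (chromosome 2, 127587222 to 127606829), the counterpart of a bacterial protein that lines the entry of the mRNA channel, ranged from 675 through 714 to 835 in sham hearts and from 541 through 612 to 766 in db/db+Aldo hearts. Here too replicate 5 was the highest of its group, and the other 7 lay between 541 and 659, all below the lowest sham library. The log2 change was −0.24 ± 0.07 (limma adjusted p = 0.0281). Mrps15 (chromosome 4, 126046925 to 126055532), a small-subunit protein with a bacterial counterpart, ranged from 710.3 through 814 to 969 in sham hearts and from 620.4 through 677 to 933 in db/db+Aldo hearts, a log2 change of −0.26 ± 0.09 (limma adjusted p = 0.0379). Mrps24, the mitochondrial form of the bacterial protein S3 (chromosome 11, 5703983 to 5715680), ranged from 699.9 through 794 to 943 in sham hearts and from 632 through 660.1 to 874 in db/db+Aldo hearts, a log2 change of −0.23 ± 0.08 (limma adjusted p = 0.0364). For Mrps15 and Mrps24, 1 further db/db+Aldo library each lay within the sham range. Their calls held in 15 and 17 of the 30 settings, and that of Mrps5 in 25. Leaving out sham replicate 7 or db/db+Aldo replicates 6 or 8, 1 at a time, ended all 3 calls. Sham replicate 2 ended those of Mrps5 and Mrps15, sham replicates 1, 5 or 6 and db/db+Aldo replicates 3, 4 or 7 those of Mrps15 and Mrps24, db/db+Aldo replicate 1 that of Mrps15 and sham replicate 3 that of Mrps24. Over all 30 settings the adjusted p in limma reached 0.0771 for Mrps5, 0.0842 for Mrps15 and 0.117 for Mrps24. Reads of Mrps24 are uncertain in part, as 15.4% of its exonic bases are shared with Urgcp on the same strand.

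**Figure D2:**
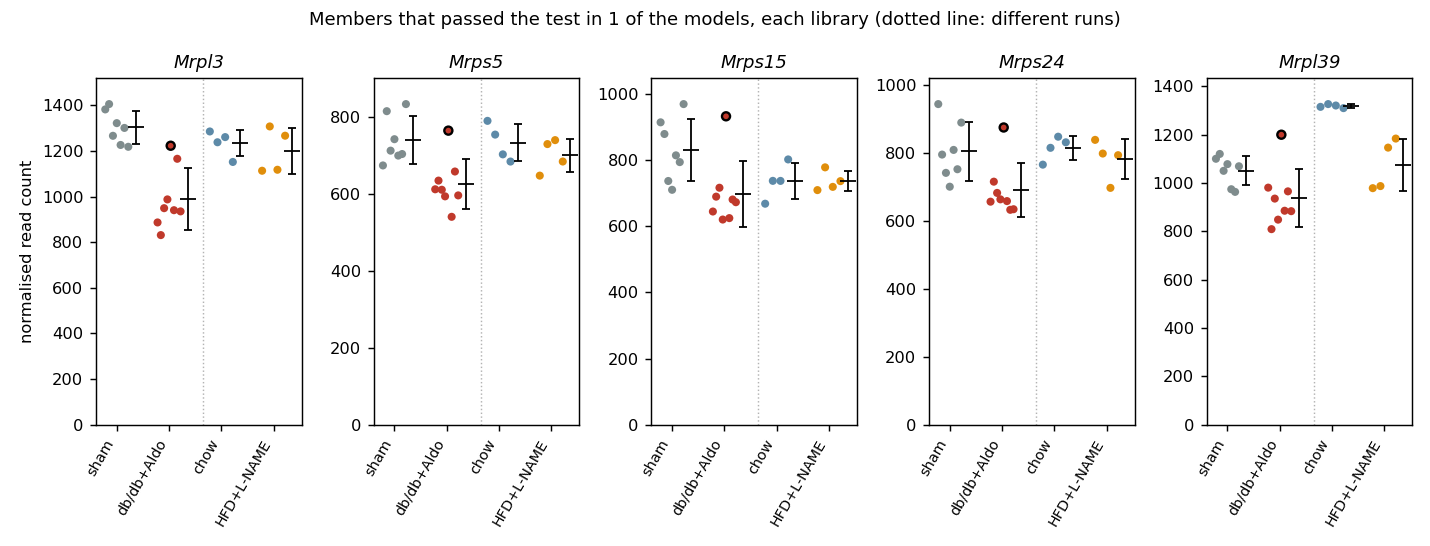
Normalised read counts of the 5 members that passed the test in 1 of the models, in every library of the 4 groups; black dashes with bars are means ± SD, and the black outline marks db/db+Aldo replicate 5. In db/db+Aldo hearts that replicate is the highest of the group for all 5 genes (1223 for Mrpl3), and in HFD+L-NAME hearts all 4 values of Mrpl39 lie below the chow values.

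The promoters of these 4 genes are printed because the genes fell in the same comparison. The sequences are those of RefSeq for GRCm38.p6, 250 bases before to 50 after the annotated start, written in the direction of transcription. RefSeq places the starts of these genes, and that of Mrpl39 below, inside the gene bounds of the GENCODE annotation. Capitals mark matches to 5 short motifs searched on both strands. They are CCGGAAG of the ETS family factor GABPA, CGCATGCG of NRF1, AAGATGGCG of YY1, TGACCTT of the oestrogen-related receptors and TATAAA. GABPA, NRF1 and YY1 are among the known regulators of nuclear genes for mitochondrial proteins. Matches of different motifs do not overlap in the promoters printed.
Mrpl3 (chr9:105053018-105053317, plus strand): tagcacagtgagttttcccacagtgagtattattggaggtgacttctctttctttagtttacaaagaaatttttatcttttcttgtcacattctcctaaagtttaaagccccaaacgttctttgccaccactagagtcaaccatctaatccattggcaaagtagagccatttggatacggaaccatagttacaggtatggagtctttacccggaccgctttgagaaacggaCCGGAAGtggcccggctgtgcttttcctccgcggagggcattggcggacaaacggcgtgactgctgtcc
Mrps5 (chr2:127587176-127587475, plus strand): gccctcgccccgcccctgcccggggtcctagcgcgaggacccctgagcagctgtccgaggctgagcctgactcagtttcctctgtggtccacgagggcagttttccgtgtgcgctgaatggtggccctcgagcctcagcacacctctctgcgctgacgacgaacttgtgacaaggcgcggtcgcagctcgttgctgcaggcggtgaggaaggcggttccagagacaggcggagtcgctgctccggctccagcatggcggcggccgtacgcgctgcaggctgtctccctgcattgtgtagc
Mrps15 (chr4:126046678-126046977, plus strand): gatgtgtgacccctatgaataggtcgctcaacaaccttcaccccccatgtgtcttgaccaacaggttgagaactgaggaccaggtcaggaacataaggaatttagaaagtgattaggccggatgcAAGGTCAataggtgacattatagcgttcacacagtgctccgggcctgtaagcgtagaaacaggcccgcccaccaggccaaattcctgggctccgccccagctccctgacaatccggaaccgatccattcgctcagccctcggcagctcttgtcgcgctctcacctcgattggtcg
Mrps24 (chr11:5707652-5707951, minus strand): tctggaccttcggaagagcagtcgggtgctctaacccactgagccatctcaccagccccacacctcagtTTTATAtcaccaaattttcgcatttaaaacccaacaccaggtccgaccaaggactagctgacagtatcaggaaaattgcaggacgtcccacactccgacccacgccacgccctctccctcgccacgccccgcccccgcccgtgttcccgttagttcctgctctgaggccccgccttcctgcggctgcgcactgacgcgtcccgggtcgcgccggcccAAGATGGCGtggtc
The 4 promoters had no motif in common among those searched. That of Mrpl3 holds the ETS motif from position −19, that of Mrps15 the reverse complement of TGACCTT from −125, and that of Mrps24 the YY1 motif from +36 and the reverse complement of TATAAA from −181. The letters of none of the 5 motifs are in the Mrps5 window. Among the 69 of 78 members with a RefSeq promoter, 37.7% hold the ETS motif, beside 9.93% of 27025 genes in the table. The NRF1 motif is in 10.1% of the members' promoters (2.07% of all), the YY1 motif in 11.6% (1.64% of all), TGACCTT in 5.80% (5.38% of all) and TATAAA in 7.25% (15.7% of all). These shares describe letters in a window and do not show binding.

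By role, the 4 members that fell were 1 protein of the large and 3 of the small subunit, all with a bacterial counterpart. Over all genes 9.21% fell and 9.96% rose, and so few calls do not set any role apart. Of the 30 tested large-subunit proteins with a bacterial counterpart, 1 fell (Mrpl3) and 0 rose, with a median log2 change of −0.04. Of the 20 tested large-subunit proteins found in mitochondria alone, 0 rose or fell in limma, with 3 at an unadjusted p under 0.05 and a median of −0.07. Of the 16 small-subunit proteins with a bacterial counterpart, 3 fell and 0 rose, with a median of −0.02. Of the 10 small-subunit proteins found in mitochondria alone, 0 rose or fell, also with 0 at an unadjusted p under 0.05, and their median was 0.02. Mrps36 carries a ribosomal name but encodes Kgd4, now known as a subunit of the alpha-ketoglutarate dehydrogenase complex. It had a log2 change of −0.09 ± 0.07 (limma adjusted p = 0.376).

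Several members with known special roles did not pass the test in db/db+Aldo hearts. Mrpl12 ranged from 1971 through 2319 to 2459 in sham hearts and from 1563 through 1833 to 2570.0 in db/db+Aldo hearts. Its log2 change of −0.25 ± 0.09 was as large as those of the called small-subunit genes but had a limma adjusted p of 0.0725. Replicate 5 was again the highest library for this gene. Without it the log2 change was −0.31, a description only, since that library was singled out by the members' high values. Mrpl58, a peptidyl-tRNA hydrolase built into the large subunit that frees stalled ribosomes, had a log2 change of −0.14 ± 0.11, and Mrpl44 one of −0.05 ± 0.07. Mrps12, a protein of the decoding centre, had −0.10 ± 0.10, and Mrps22, a mitochondria-specific protein of the small subunit, −0.17 ± 0.09. Mrps30, which despite its name is part of the large subunit, was near 0 at −0.02 ± 0.08, and Mrps34 of the small subunit was at 0.12 ± 0.10. The adjusted p-values of these 6 genes lay between 0.186 and 0.912 in limma.

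The 3 members with a positive change and the smallest p were Mrps10, Mrps23 and Mrpl10, and none passed the test. Mrps10, a small-subunit protein with a bacterial counterpart, ranged from 204 through 225 to 258 normalised counts in sham and from 241 through 257 to 293 in db/db+Aldo hearts, a log2 change of 0.20 ± 0.07 (limma adjusted p = 0.0702). It passed the test without sham replicate 7, without the 4 libraries of this comparison that an earlier analysis doubted and with all 23 libraries in 1 fit. In limma Mrps23 was at 0.16 ± 0.09 (adjusted p = 0.233) and Mrpl10, the anchor of the stalk, at 0.13 ± 0.07 (adjusted p = 0.202). For all 3 genes the sign was negative under total-count scaling, without size factors and with the values as deposited, so their direction depends on the scaling. That of Mrps23 also differed between the short and the long library names described below. Its log2 change was −0.06 ± 0.09 within the short and 0.42 ± 0.11 within the long names (limma adjusted p = 0.737 and 0.0606).

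One library, db/db+Aldo replicate 5, stood apart for these genes and also held many of the extreme values over all genes. Its members lay at a median of 0.29 above the sham mean on the log2 scale, while the medians of the other 7 db/db+Aldo libraries ran from −0.17 to 0.06 and those of the 7 sham libraries from −0.09 to 0.09. In that library 74 of the 77 members were above the sham mean, beside 49.8% of all genes, and 48 (62.3%) had their highest value of the 15 libraries there, beside 15.7% of all genes. The lowest value lay there for 21.1% of all genes and 0.0% of the members. In each other library of the run, 4.53% to 8.37% of all genes had their highest value and 4.55% to 6.68% their lowest. The members of each role lay high, with medians of 0.27 and 0.31 in both large-subunit lists and 0.35 and 0.24 in both small-subunit lists, in the order of bacterial counterpart and mitochondria alone. The 5 proteins of the particle whose names do not follow the Mrp rule (Dap3, Ptcd3, Chchd1, Aurkaip1 and Gadd45gip1) had a median of 0.41 in that library, and all 5 were above the sham mean. The lists of proteins that build or use the mitochondrial ribosome lay lower there, with medians of 0.09 for assembly, 0.08 for translation factors and 0.05 for the mitochondrial aminoacyl-tRNA synthetases. The library's share of counts from the mitochondrial genome, 45.2%, was within the range of its group. What sets this library apart was not tested. It was singled out by the members' own values, so the members' values without it are given as descriptions.

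Without db/db+Aldo replicate 5, 15 of the 77 members fell and 0 rose, or 19.5% beside 12.4% of all genes that fell in the same fit. The median of the members then moved to −0.08, beside −0.01 for all genes. The 15 were the 4 named above and Mrpl11, Mrpl12, Mrpl21, Mrpl33, Mrpl34, Mrpl38, Mrpl39, Mrpl48, Mrpl52, Mrpl55 and Mrps31, with log2 changes from −0.45 (Mrpl3) to −0.16 (Mrpl11). They came from all 4 role lists. An earlier analysis of these files doubted sham replicates 1 and 7, replicates 1 and 5 of db/db+Aldo, and replicate 3 of HFD+L-NAME. Without the 4 of them in this comparison, 9 members (11.7%) fell, beside 10.7% of all genes, and 1 rose, Mrps10, beside 12.2% of all genes.

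**Figure D3:**
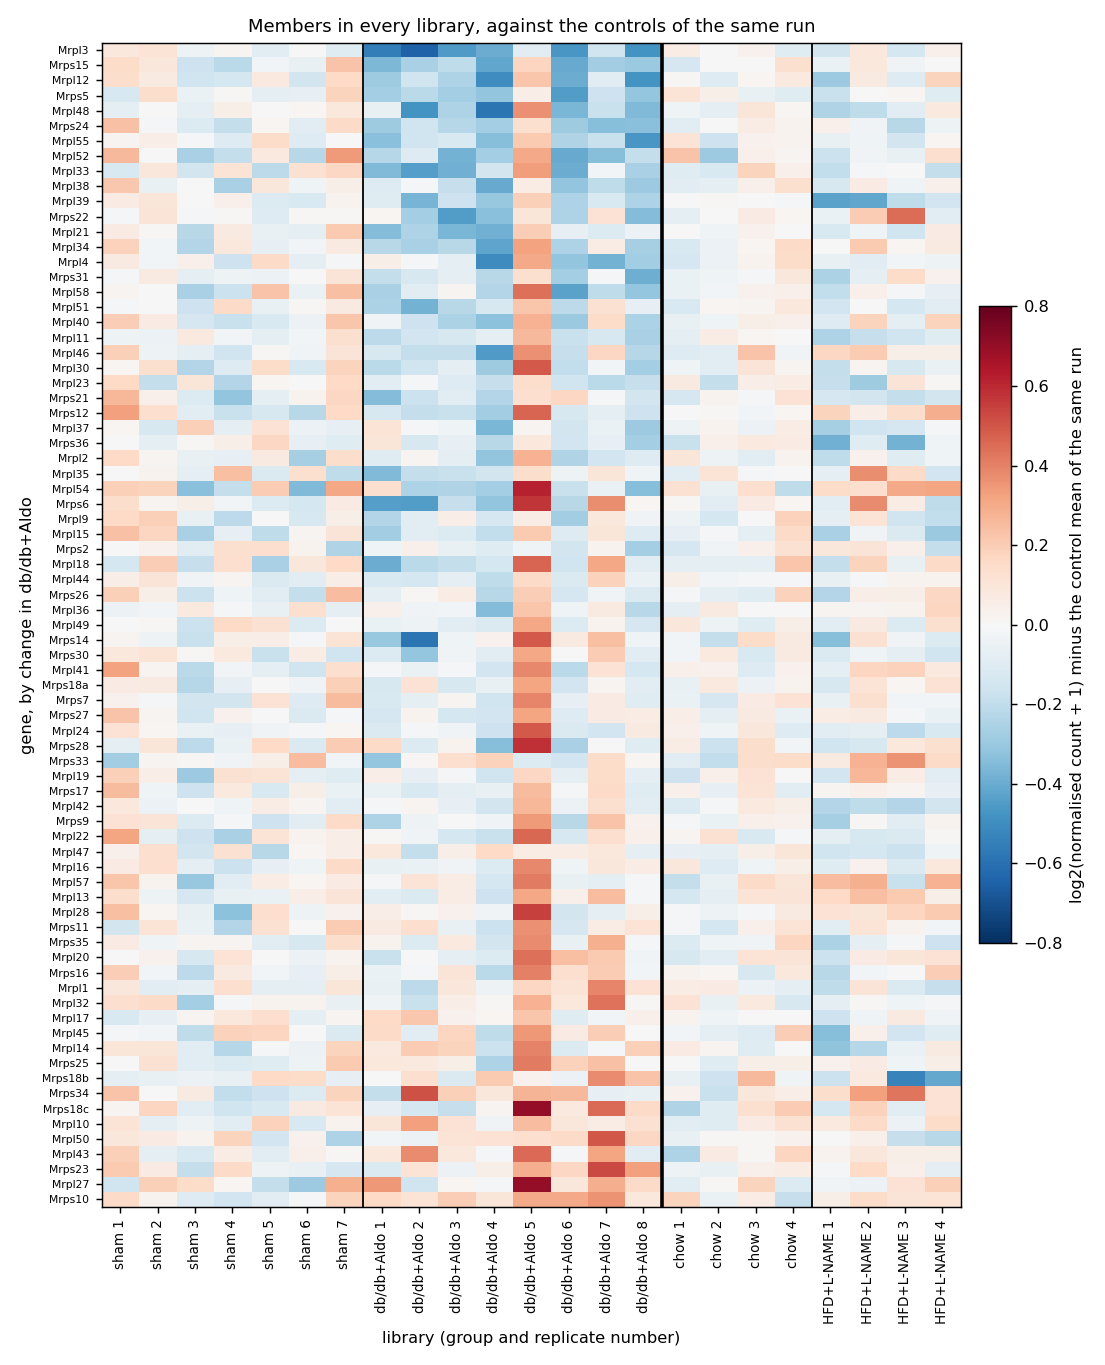
Heat map of log2(normalised count + 1) minus the mean of the controls of the same run, for the 77 tested members (rows, sorted by the change in db/db+Aldo hearts) in all 23 libraries (columns, black lines between groups and a thick line between runs). The column of db/db+Aldo replicate 5 is red in 74 of 77 rows, and the top row, Mrpl3, is blue in the other db/db+Aldo libraries.

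The libraries of this run carry short or long library names (replicates 1 to 4 and replicates 5 and above of both groups), and the labels do not say what the names stand for. Within the short names, 3 members (3.90%) fell, beside 3.97% of all genes, and 0 rose, beside 5.33%. They were Mrpl3, Mrpl39 and Mrps6. Of the members that fell in the pooled fit, Mrps5, Mrps15 and Mrps24 were thus not called there (limma adjusted p = 0.0596, 0.0704 and 0.147). The median of the 77 members was −0.09 within the short names, and 64 of 77 lay below 0. Within the long names 0 fell, beside 1.83% of all genes, and 0 rose, beside 3.04%, with 2 at an unadjusted p under 0.05 in limma and a median of 0.00. Without replicate 5 it was 10 that fell (13.0%, beside 7.71% of all genes) and 2 that rose (beside 9.35% of all genes), with a median of −0.06. Mrpl3 had a log2 change of −0.56 ± 0.07 within the short names (limma adjusted p = 0.000715). In limma it was, within the long names, at −0.24 ± 0.13 (adjusted p = 0.313), and at −0.31 ± 0.10 (adjusted p = 0.0486) without replicate 5. The values without replicate 5 are descriptions, since that library was singled out by these genes. With the name series as a covariate the count of the pooled fit stood, 4 lower and 0 higher.

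The number of members called depended on how the libraries were scaled. Without size factors 33 of 77 members were lower in db/db+Aldo hearts, beside 36.1% of all genes. With scaling to the total count 32 were lower, beside 33.7% of all genes. In these fits all 77 members had a negative log2 change, with medians of −0.28 and −0.23, and the median of all genes was shifted by nearly as much, to −0.27 and −0.22. With the total count taken without the mitochondrial genome, 6 members (7.79%) fell, beside 10.3% of all genes, and 0 rose, beside 9.42%.

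**Figure D4:**
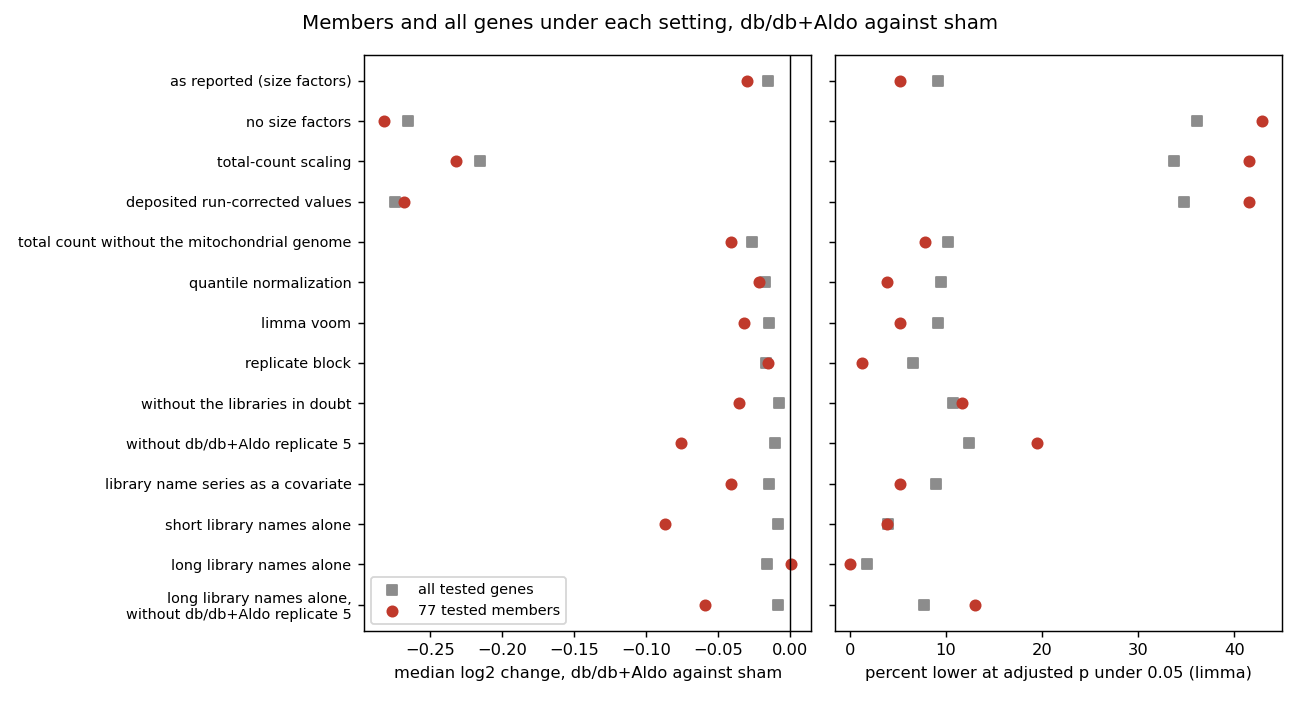
Median log2 change (left) and percent called lower at an adjusted p under 0.05 in limma (right) in db/db+Aldo against sham hearts, for the 77 tested members (red circles) and all tested genes (grey squares), under different settings. Without size factors both medians lie near −0.28 and −0.27. Without db/db+Aldo replicate 5, 19.5% of the members and 12.4% of all genes are lower. That library was singled out by its high member values, so leaving it out lowers the members by construction.

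As shares of the library, the members and the mitochondrial genome differed in opposite directions. The mitochondrial genome took 38.9% ± 4.68 (SD, n = 7) of the counts in sham and 46.6% ± 4.13 (SD, n = 8) in db/db+Aldo hearts (2-sided exact permutation test, p = 0.00404, adjusted p = 0.0242 over 6 comparisons of shares). This share ran from 30.0% to 42.7% in sham and from 41.2% to 52.8% in db/db+Aldo libraries. The lowest was sham replicate 7, one of the doubted libraries, and the test was not repeated without it. All members together took 0.259% ± 0.0228 of the counts in sham and 0.217% ± 0.0289 in db/db+Aldo hearts (p = 0.00995 in the same exact test, adjusted p = 0.0298). In sham hearts the members' share ran from 0.237% to 0.302%, the highest being replicate 7. In db/db+Aldo hearts it ran from 0.181% to 0.273%, the highest being replicate 5. Among counts outside the mitochondrial genome the members' share was 0.424% ± 0.0147 in sham and 0.405% ± 0.0417 in db/db+Aldo hearts, and this difference did not pass the exact test (p = 0.300, adjusted p = 0.449). Without replicate 5, which was singled out by these same genes, the latter mean was 0.392%. Markers of other cell types moved in the same comparison, with 5 of 8 fibroblast and 3 of 7 macrophage markers higher in db/db+Aldo hearts. Over all genes, 9.96% rose and 9.21% fell. The fibroblast markers summed to 15638 to 18591 normalised counts in sham and 18460.1 to 25537 in db/db+Aldo libraries, the macrophage markers to 3334 to 5004 and 4050.5 to 6220.5, and none of either was at 0. The smooth muscle and pericyte markers summed to 16534 to 18626 in sham and 13664 to 15575 in db/db+Aldo libraries, so that the groups lay fully apart, with no marker at 0. Of the 5 tested, 1 fell, the smooth muscle actin gene Acta2 (−1.77 ± 0.18, limma adjusted p = 2.5e-06). Of the 7 endothelial markers 2 rose, Fabp4 (0.75 ± 0.09) and Emcn (0.36 ± 0.10), and 1 fell, Tie1 (−0.36 ± 0.08), with sums of 17713 to 22238 in sham and 19655 to 23577 in db/db+Aldo libraries. Of the 5 mesothelial markers 1 rose, Msln (0.84 ± 0.15), with sums of 429 to 639.5 and 524 to 985. Of the white and the brown adipocyte markers 1 of each was tested, and Plin1 fell by 1.74 while Cidea rose by 0.52. Apart from smooth muscle and pericytes, the sums of each marker list overlapped between the groups. Of the cardiomyocyte markers, 1 of 7 fell (Myh6, −0.34 ± 0.10), and their sums were 996605 to 1299122 in sham and 943853 to 1187715 in db/db+Aldo libraries. Their part in the members' values was not tested.

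**Figure D5:**
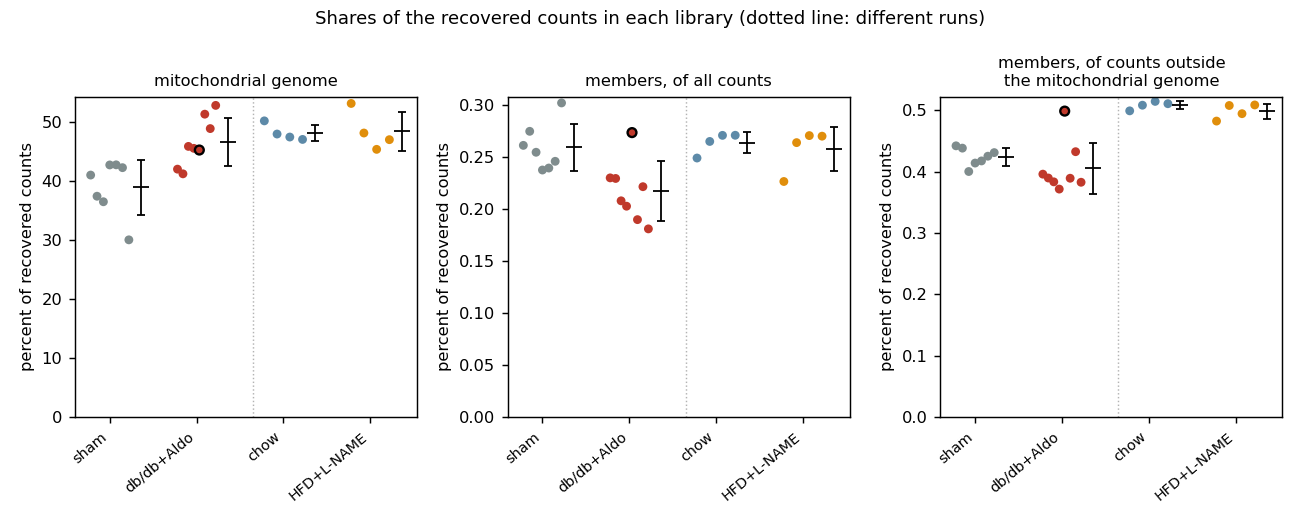
Percent of recovered counts from the mitochondrial genome (left), from all members (middle) and from all members among counts outside the mitochondrial genome (right), for every library of the 4 groups; black dashes with bars are means ± SD, and the black outline marks db/db+Aldo replicate 5. The mitochondrial share averages 38.9% in sham and 46.6% in db/db+Aldo hearts, and replicate 5 has the highest member share of its group in the middle and right panels.

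Other genes of mitochondrial protein synthesis rose or fell in db/db+Aldo hearts, by lists that were drawn up with earlier results of these data known. The counts below stand beside 9.21% of all tested genes that fell and 9.96% that rose in the same limma fit. Of 25 genes for assembly of the particle and modification of its RNA, 4 fell and 3 rose, with a median of −0.13. The rRNA methyltransferase Mrm3 fell from 273 to 204 normalised counts (log2 change −0.43 ± 0.09, limma adjusted p = 0.00215) and the GTPase Noa1, needed for the small subunit, by 0.32, while the rRNA methyltransferases Nsun4 and Mettl15 rose by 0.24 and 0.27. Of 13 translation factors 1 rose, Gfm2 (0.16 ± 0.05), a factor that takes ribosomes apart after translation. Of 19 mitochondrial aminoacyl-tRNA synthetases 4 fell and 0 rose, among them Yars2 (−0.28 ± 0.07), Cars2 (−0.33 ± 0.10) and Aars2 (−0.27 ± 0.09). Of 20 tested genes for mitochondrial transcription, replication and RNA stability, 1 fell, the DNA polymerase Polg (−0.38 ± 0.07, limma adjusted p = 0.000803). None of the 5 ribosomal proteins named otherwise was called in limma, with 1 at an unadjusted p under 0.05. Of the 15 genes of the mitochondrial genome, 7 rose and 1 fell, with a median of 0.50. The one that fell was mt-Rnr2, the RNA of the large ribosomal subunit (−0.39 ± 0.09, limma adjusted p = 0.00440), and its capture by poly(A) selection was not tested. The mRNAs mt-Nd5 and mt-Co3, for subunits of complexes I and IV, rose by 0.65 ± 0.16 and 0.96 ± 0.22. The smallest p of this list was that of mt-Nd6 (0.82 ± 0.16, limma adjusted p = 0.00142). Its mean in db/db+Aldo hearts was 777272 normalised counts, beside 7769 for mt-Co3. Whether counting used strand is not given, so the values of single mitochondrial-genome genes are uncertain. The directions in all these lists hold relative to the size factors. Without size factors 0 of the assembly genes and translation factors rose, and 15 and 7 of them fell, as did 11 of the synthetases and 9 of the transcription list. In that fit 36.1% of all genes fell. The median of the mitochondrial genome was then 0.25, with 6 genes higher and 3 lower. With quantile normalization that median was 0.09, with 3 genes higher and 1 lower, and 2 of the synthetases fell. Without db/db+Aldo replicate 5, 3 translation factors, 6 synthetases, 6 assembly genes and 2 of the transcription list fell, and 5 mitochondrial-genome genes rose. Of all genes, 12.4% fell without that library.

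In HFD+L-NAME hearts 1 of the 77 members fell against chow hearts and 0 rose. Over all 13801 genes tested, 1.0% fell and 1.18% rose, so the members' counts were near the background. At an unadjusted p under 0.05, 11 members (14.3%) differed, beside 15.3% of all genes, and the median was −0.02 over the members and 0.00 over all genes. The authors' deposited table has 2 members lower, Mrpl39 and Mrpl42, and 0 higher. The gene that fell in both, Mrpl39, encodes a large-subunit protein found in mitochondria alone and is shown with its promoter on chromosome 16 for that reason, with the NRF1 motif in capitals from position −124.
Mrpl39 (chr16:84735195-84735494, minus strand): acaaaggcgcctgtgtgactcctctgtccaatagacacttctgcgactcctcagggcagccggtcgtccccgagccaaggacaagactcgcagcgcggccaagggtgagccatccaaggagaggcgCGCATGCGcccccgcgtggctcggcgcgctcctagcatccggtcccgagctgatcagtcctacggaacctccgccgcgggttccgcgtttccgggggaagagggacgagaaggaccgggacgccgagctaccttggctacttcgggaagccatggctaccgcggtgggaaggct
Mrpl39 (84717576 to 84735742, minus strand) had 1315, 1327, 1321 and 1309.9 normalised counts in the chow hearts and 979, 987, 1147 and 1184 in the HFD+L-NAME hearts. All treated libraries were below all chow libraries, and the pair of males, replicates 1 and 2, was the lowest. The log2 change was −0.30 ± 0.06 (limma adjusted p = 0.0342). The call held in 9 of the 23 alternative settings and was lost on leaving out any 1 library other than HFD+L-NAME replicate 4, with an adjusted p of up to 0.147 over all alternatives. In the db/db+Aldo model Mrpl39 had a log2 change of −0.17 ± 0.07 (limma adjusted p = 0.111).

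For 3 members all HFD+L-NAME values lay below all chow values (Mrpl11, Mrpl39 and Mrpl42), and for 3 others above (Mrpl28, Mrps12 and Mrps34). That is 3.90% in each direction, beside 4.24% and 3.96% of all genes. Mrpl42 had 4987, 5317, 5661 and 5538 counts in chow and 4559, 4673, 4560.4 and 4845 in HFD+L-NAME hearts, a log2 change of −0.21 ± 0.05 (limma adjusted p = 0.0748). Mrpl11, a protein at the base of the stalk, had 550.4, 606, 586 and 583 in chow and 489.9, 510.4, 521 and 542 in HFD+L-NAME hearts, a log2 change of −0.17 ± 0.07 (limma adjusted p = 0.229). Both missed the threshold although their groups were apart.

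In the other direction, Mrps34 had 252, 217, 261 and 255 counts in chow and 272, 309, 331 and 267 in HFD+L-NAME hearts, a log2 change of 0.25 ± 0.10 (limma adjusted p = 0.226). This gene is uncertain, since 63.4% of its exonic bases are shared with Mapk8ip3 on the opposite strand and 37.0% with Nme3 on the same strand, and the use of strand in counting is not given in the sources used here. Mrpl28 of the large subunit was at 0.15 ± 0.06, Mrps12 at 0.16 ± 0.07 and Mrpl54, a mitochondria-specific protein of the large subunit, at 0.23 ± 0.09. Their adjusted p-values were 0.217, 0.282 and 0.230 in limma. Mrps36, the dehydrogenase subunit, had 829.7, 966, 992 and 982 in chow and 719, 878, 722 and 917 in HFD+L-NAME hearts, a log2 change of −0.22 ± 0.09 (limma adjusted p = 0.266). Mrpl3, Mrpl44 and Mrps22, whose human counterparts are disease genes of the heart, were at −0.04 ± 0.07, −0.01 ± 0.06 and 0.13 ± 0.12.

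One library also lay apart here. HFD+L-NAME replicate 1, a male, held the lowest value of the 8 libraries for 30 of the 77 members (39.0%, beside 14.0% of all genes) and the highest for 0. Its members' median was −0.12 from the chow mean, against −0.03 to 0.04 in the other HFD+L-NAME hearts, and its share of counts from the mitochondrial genome was the highest of the run, at 53.1%. The members took 0.264% ± 0.0103 of the counts in chow and 0.257% ± 0.0210 in HFD+L-NAME hearts (exact permutation test, p = 0.571, adjusted p = 0.686), and 0.508% ± 0.00655 and 0.498% ± 0.0125 of those outside the mitochondrial genome (exact p = 0.200, adjusted p = 0.400). With 4 against 4 libraries the smallest 2-sided p of this test is 0.0286. Of the macrophage and the endothelial markers, 2 of 7 each rose in HFD+L-NAME hearts, beside 1.18% of all genes. Of the 3 tested Schwann cell markers 1 fell, Sox10 (−1.26 ± 0.27), beside 1.0% of all genes. The Schwann sums lay fully apart, between 170 and 291 in chow and 108 and 166 in HFD+L-NAME libraries. The brown adipocyte sums, 356 to 478.5 in chow and 483 to 672 in HFD+L-NAME libraries, also lay fully apart, with Ucp1 at 0 in chow and Elovl3 at 0 in HFD+L-NAME hearts, and the 1 marker tested did not pass. The macrophage sums were 3801 to 5221 in chow and 3975 to 6044 in HFD+L-NAME libraries, the endothelial sums 15949.8 to 19056 and 18598 to 22413, with no marker of either at 0. Of the 7 cardiomyocyte markers 0 were called, 4 had an unadjusted p under 0.05 in limma, and 6 lay below 0. Their sums were 774978 to 881919 in chow and 678403 to 805391 in HFD+L-NAME libraries. Of the 5 red blood cell markers 0 were called and 4 had an unadjusted p under 0.05, with a median log2 change of 0.68. Their sums were 7004 to 18532 and 12940 to 31153. The part of these cell types in the members' values was not tested.

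Among the other lists in HFD+L-NAME hearts, 1 of the 5 ribosomal proteins named otherwise fell, beside 1.0% of all genes. It was Gadd45gip1, a large-subunit protein, from 415 to 324 normalised counts (log2 change −0.36 ± 0.07, limma adjusted p = 0.0251). Of the 15 mitochondrial-genome genes 1 fell, mt-Rnr1, the RNA of the small ribosomal subunit (−0.51 ± 0.11, limma adjusted p = 0.0346). With total-count scaling 0 genes of either list were called, and with quantile normalization 0 of the mitochondrial genome. Of the assembly, translation factor, synthetase and transcription lists, 0 genes were called in limma, with 5, 0, 2 and 2 genes at an unadjusted p under 0.05.

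Both effects were set against each other, each within its run, in 1 limma fit. The difference passed the test for 0 of 77 members, beside 5.39% of all genes, with 3 members at an unadjusted p under 0.05. Mrpl3 came nearest, with a change in db/db+Aldo hearts that was lower by 0.37 ± 0.12 on the log2 scale than that in HFD+L-NAME hearts (log2 difference −0.37, limma adjusted p = 0.0686), so its fall is not shown to be particular to db/db+Aldo hearts. Without db/db+Aldo replicate 5 or replicate 7, without the libraries in doubt, without size factors and with total-count scaling, 1 member passed in this direction. The others at an unadjusted p under 0.05 in limma were Mrps18b (0.37 ± 0.15, adjusted p = 0.172) and Mrpl42 (0.21 ± 0.09, adjusted p = 0.207), both lower in HFD+L-NAME and slightly above 0 in db/db+Aldo hearts, neither called in either model.

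No member passed the test of a difference in response between the sexes. In limma the interaction of sex and treatment was called for 0 of 77 members in both models. At an unadjusted p under 0.05 there were 0 members in the db/db+Aldo model and 6 in the diet model. The difference between treated females and males was called for 0 of 77 in both, with 0 and 7 at that unadjusted threshold. The shares of all genes in these fits are not given here, so the unadjusted counts are not read as a result about the members. The authors' deposited tables of females against males also list 0 members as different. The smallest interaction p in the diet model was that of Mrps18b, a small-subunit protein related to bacterial S18. Its values were 209 and 195 in male chow, 261 and 213 in female chow, 193 and 230.4 in male HFD+L-NAME and 150.4 and 164 in female HFD+L-NAME hearts. The females were thus apart, and the interaction was −0.65 ± 0.21 on the log2 scale (limma adjusted p = 0.568). An antisense transcript, Gm16279, shares 30.5% of its exonic bases. Mrpl14, of the large subunit, had the next smallest p in limma (0.37 ± 0.13, adjusted p = 0.597), with 974 and 945 in male chow, 869 and 933 in female chow, 744 and 793 in male HFD+L-NAME and 894 and 978 in female HFD+L-NAME hearts. In the db/db+Aldo model the smallest p-values were those of Mrpl11 and Mrpl19 for the interaction (−0.25 ± 0.14 and 0.24 ± 0.15) and of Mrps14 and Mrpl11 for the treated females minus the treated males (−0.31 ± 0.15 and −0.16 ± 0.10). Mrpl3 averaged 1277 ± 45.3 (SD, n = 4) in female sham and 955 ± 147 (SD, n = 4) in female db/db+Aldo hearts. In males the means were 1338 ± 97.4 (SD, n = 3) and 1025 ± 134 (SD, n = 4), and the interaction was −0.04 ± 0.16 on the log2 scale.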

How the data were processed

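The 23 libraries hold poly(A)-selected whole-heart RNA sequenced with paired ends, per the labels' protocols. The submitters' processing notes name featureCounts, DESeq2, limma, GRCm38 and mm10 without roles; whether counting used strand is not stated there. The deposited table holds whole counts less a shift per gene and run (10.2% of values are below 0). Counts were recovered from it with the authors' deposited mean signal, for 52392 of 55487 genes, with 99.97% (db/db+Aldo run) and 99.99% (diet run) of values whole within 0.001, so a log-scale test replaced any count model. The authors' deposited tables also give log2 fold changes, test scores and p-values, of which scores were not used.

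Recovered counts were divided by size factors read from genes of a single read. limma 3.58.1 (R 4.3.3) with a variance trend was fitted to log2(normalised count + 1) of all genes with a mean of at least 10, per model, with sex as covariate and Benjamini-Hochberg adjustment at 0.05, and was tested on simulated data. Depth was 21258779 to 25692431 counts. Shares of counts were compared by exact permutation (scipy 1.17.1). Positions are GENCODE M21 and promoters RefSeq, both GRCm38. Named were up to 8 called members per direction and model, or the 3 with the smallest p where fewer than 4 passed, 10 members of known role, the 2 smallest p per sex contrast and the extremes of level. Members and lists were chosen with earlier results of these data known. Alternatives covered pseudocount, filter, scaling, voom, trend, sex, replicate number and left-out libraries; splits by library name, and the replicate block for the difference of the effects, were added after seeing the data.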

Additional observations from a re-analysis of the deposited data

Results flagged for a closer look

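The checks of named members and shares rest on the same libraries. They are not independent, so no chance rate is set beside their count. Single libraries lay far from the rest of their group in 10 of the 116 checks. Of these, 8 were db/db+Aldo replicate 5, always high, in normalised counts: Mrpl11 at 625.4 (the other 7 libraries at 437 to 497), Mrpl28 at 1664 (1029 to 1183), Mrpl39 at 1200 (809 to 981), Mrpl54 at 722.6 (371 to 516), Mrpl58 at 914.8 (499 to 683), Mrps12 at 545.8 (326 to 375), Mrps15 at 932.5 (620.4 to 717) and Mrps24 at 874 (632 to 715). In the diet run, chow replicate 1 was low for Mrps36 at 829.7 (966 to 992 in the other 3). HFD+L-NAME replicate 1 had a low share of counts from all members, 0.2262% (0.263% to 0.270% in the other 3).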

How the results depend on the processing

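In db/db+Aldo against sham hearts, 4 members were lower. The count was 2 with no filter, 33 without size factors, 32 each with total-count scaling and on the deposited values, 2 without a variance trend, 9 without the libraries in doubt (with 1 higher), 0 within the long library names, and 10 lower and 2 higher there without db/db+Aldo replicate 5. With all 23 libraries in 1 fit 1 was higher. Leaving out 1 library gave 1 (db/db+Aldo replicates 6 or 8, sham replicate 7) to 15 lower (db/db+Aldo replicate 5) and 0 to 1 higher (sham replicate 7). It was 2 on leaving out sham replicates 1, 2, 5 or 6, or replicates 3, 4 or 7 of db/db+Aldo. The 33 lower members are 42.9%, beside 36.1% of all genes in that fit. Under the total count it was 41.6%, beside 33.7%. Lacking the doubted libraries it was 11.7%, beside 10.7%, and lacking db/db+Aldo replicate 5 19.5%, beside 12.4%. For the deposited values, no filter, no variance trend, all 23 libraries and the other left-out libraries, shares of all genes are not given. Those counts are therefore not read as a member result. The members' median moved to −0.2816 without size factors, −0.2317 under the total count and −0.2682 on the deposited values, and ran from −0.0758 to −0.0131 with 1 library left out.

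In HFD+L-NAME against chow hearts, 1 member was lower. The count was 0 with total-count scaling, without the mitochondrial genome in the total, without a trend, without the library in doubt, without the sex covariate and with all 23 libraries, and 0 to 1 with 1 library left out (1 only without HFD+L-NAME replicate 4). The median was −0.0714 without size factors and −0.0723 on the deposited values, and −0.0553 to 0.0039 with 1 library left out. For the difference of the effects, 1 member was lower with total-count scaling, without the libraries in doubt and without size factors, and 0 to 1 with 1 library left out.

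The replicate number as a block gave 1 lower member in db/db+Aldo hearts and 0 in HFD+L-NAME hearts. Deviations of same-numbered libraries correlated from −0.22 to 0.11 and from 0.093 to 0.38, so the numbers are not taken to pair the libraries. For the difference of the effects the block, nested in each run and added after seeing the data, called 0 members, with 2 at an unadjusted p under 0.05 in limma.

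Over 1368 values of named members under the alternatives, 1200 kept direction and side of the threshold, 36 passed it newly, 54 lost it and 78, all of uncalled members, changed sign.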
